A study of Homo sapiens with 22 samples.

Results

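The ERBB family of growth factor receptors and the ligands that bind it were followed in human tumour cells grown in mice and treated with alectinib, a small-molecule inhibitor of the ALK tyrosine kinase. The set held 10 of the 58735 genes of the human table. The 4 receptors were EGFR, ERBB2, ERBB3 and ERBB4, and the 6 ligands were TGFA, AREG, HBEGF, EREG, BTC and NRG1, all taken by their symbols. The tumours were xenografts of H3122, a lung adenocarcinoma cell line that carries an ALK fusion, so all groups share 1 tumour line and the ALK fusion. RNA of 22 tumour samples was sequenced in bulk and fell into 6 groups. Each sample is called a tumour below, although no label ties it to an animal of its own. In hHGF-NSG mice there were 3 therapy-naive tumours, 4 treated with alectinib for 2 weeks and 3 treated for 6 weeks. In NSG mice there were 4 tumours in each of the naive, 2-week and 6-week groups. NSG mice lack mature T, B and natural killer cells and keep myeloid cells, and hHGF-NSG mice also carry human HGF, the ligand of the receptor MET. The labels give neither the promoter that drives human HGF, nor the dose, nor the age of the mice.

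EGFR, ERBB2, ERBB3 and ERBB4 are membrane receptors that pair when a ligand binds, and the kinase of one receptor then phosphorylates the tail of its partner. ERBB2 has no known ligand of its own and is the preferred partner of the others, while ERBB3 has a weak kinase and recruits PI3 kinase through its phosphorylated tail. TGFA and AREG bind EGFR, HBEGF, EREG and BTC bind EGFR and ERBB4, and NRG1 binds ERBB3 and ERBB4. All are made as membrane-bound precursors, and proteases of the ADAM family cut most of them free. In ALK-positive lung cancer, signalling through EGFR and ERBB3 is a known route by which cells survive inhibition of ALK.

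In the hg38 coordinates of the files, EGFR lies at chr7:55019021-55211628, ERBB2 at chr17:39687914-39730426 and ERBB3 at chr12:56076799-56103505, all on the plus strand. ERBB4 lies at chr2:211375717-212538841, TGFA at chr2:70447280-70554193 and HBEGF at chr5:140332843-140346631, all on the minus strand.

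Human libraries held 10688632 to 19065656 reads, recovered from the deposited FPKM (a read count scaled to gene length and a library size), and mouse libraries 895826 to 5766509. The human library size that the FPKM imply was 0.876 to 0.937 of the recovered reads in naive libraries and 0.986 to 1.11 in treated ones. The deposited values were thus not scaled to the total of recovered reads alone. The mouse table was used for 20 of the 22 samples, without NSG naive replicate 2 and NSG 6 weeks replicate 4. Human HGF, which the hHGF-NSG host should add, had 13 to 79 reads in the 10 hHGF-NSG libraries. It had 0 to 6 reads in 11 NSG libraries but 43 reads in NSG naive replicate 1. That library goes against its label on this gene. Without it, the log2 changes of ERBB2, ERBB3, EGFR, AREG and BTC in NSG tumours were 1.50, 0.37, -0.81, -1.31 and 0.41 at 2 weeks and 1.64, 0.55, -0.87, -1.10 and 0.34 at 6 weeks, and the limma adjusted p-values stayed under the threshold, at up to 0.0405. TGFA then changed by -0.47 at 2 weeks, with a limma adjusted p-value of 0.00371, and by 0.02 at 6 weeks, with 0.887. The call that was lost, HBEGF at 2 weeks, is given with that gene. Of 10 markers of the labelled lung tumour line, among them EPCAM, KRT8, CDH1 and NKX2-1, all 10 had a mean of at least 1 FPKM in both naive groups, and 9 or 10 in the treated groups. NAPSA was the lowest of them, at 0.330 to 5.69 FPKM over all libraries. None of 4 leukocyte markers and 3 adipocyte markers reached a mean of 1 FPKM in any group. PTPRC was at 0 to 0.0159 FPKM and ADIPOQ had no read in any library.

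A gene was tested where it reached 1 FPKM in at least 3 of the 22 samples, which 16029 genes did. EGFR, ERBB2, ERBB3, TGFA and BTC passed in all 22 samples, AREG in 19 and HBEGF in 5. Of those 5 samples with HBEGF at 1 FPKM or more, 4 were naive, so HBEGF entered the test largely through the group in which it was high. Its falls and calls, counted among the lower members below, are thus given as a description. ERBB4, EREG and NRG1 did not pass and are described by their values and by fits with a lower filter. The test was limma on log2(FPKM + 1) with Benjamini-Hochberg adjustment over all genes tested and a threshold of 0.05. No label ties a sample to an animal of its own, so each p-value speaks to the spread among the libraries at hand, which may be technical.

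Most of the tested genes differed between alectinib-treated and naive tumours. At 2 weeks against naive in hHGF-NSG mice, 3 of the 7 tested members were higher and 4 lower, where 27.5% of all tested genes were higher and 26.6% lower, 54.1% in all. At 6 weeks in hHGF-NSG mice the members gave the same counts of 3 and 4, against 25.9% higher and 25.5% lower, 51.3% in all. In NSG mice at 2 weeks the counts were again 3 and 4, against 28.1% and 28.0%, 56.1% in all. HBEGF was among the 4 lower members in each of these comparisons. At 6 weeks in NSG mice 3 were higher and 2 lower, against 28.8% in each direction and 57.6% in all. The median log2 change of the 7 tested members was -0.84 and -0.67 at 2 and 6 weeks in hHGF-NSG mice and -0.56 and -0.07 in NSG mice. Over all genes tested the medians were 0.03, 0.02, 0.03 and 0.03. With more than 1 in 2 genes changed, the share of members called says little about the family, and the results lie in which members moved and how far.

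Other measures moved with treatment as well. Of the 10 tumour markers, 1 was higher and 9 lower at 2 weeks and 1 higher and 7 lower at 6 weeks in hHGF-NSG tumours, and 1 higher and 7 lower at both times in NSG tumours. The 1 higher was NKX2-1, a lung lineage factor, at means of 248 and 321 FPKM at 2 and 6 weeks in hHGF-NSG tumours against 79.8 in naive ones, and of 228 and 235 FPKM in NSG tumours against 85.8 in naive ones. The keratin KRT8 was at 318 and 350 FPKM in hHGF-NSG tumours against 938 in naive ones, and EPCAM, the epithelial adhesion molecule, at 254 and 270 FPKM against 328. The summed level of the 10 tumour markers was 1264.65 to 1554.48 and 1396.1 to 1763.41 FPKM at 2 and 6 weeks in hHGF-NSG tumours, against 2681.78 to 3980.68 in naive ones. In NSG tumours it was 1470.93 to 1724.95 and 1350.45 to 1596.95 FPKM, against 2608.16 to 4045.8 in naive ones. The summed fibroblast markers, of which COL1A1 and LUM alone passed the filter, stood at 6.37 to 8.32 and 12.6 to 16.4 FPKM in treated hHGF-NSG tumours against 41.9 to 112 in naive ones, and at 8.54 to 11.6 and 5.15 to 14.3 FPKM in treated NSG tumours against 26.8 to 42.1 in naive ones. Of 4 endothelial markers, KDR was at 3.64 and 6.84 FPKM at 2 and 6 weeks in hHGF-NSG tumours against 3.44 in naive ones, and at 6.74 and 11.4 FPKM in NSG tumours against 3.08 in naive ones. VWF was at 1.36 and 0.946 FPKM against 0.487 in hHGF-NSG tumours and at 1.299 and 0.812 FPKM against 0.572 in NSG tumours, CDH5 at 1.65 and 1.81 against 2.31 and at 1.71 and 1.87 against 3.02, and PECAM1 had at most 8 reads in any library. DCN and PDGFRB, which mark fibroblasts more closely, had at most 5 and 2 reads in any library. Mouse reads made up 12.9% and 27.3% of all reads on average at 2 and 6 weeks in hHGF-NSG tumours against 9.74% in naive ones, and 15.7% and 19.2% in NSG tumours against 7.94% in naive ones. The part of these shifts in the results that follow was not tested. In bulk RNA, fewer cells that express a gene and less of its RNA per cell cannot be told apart.

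**Figure D1:**
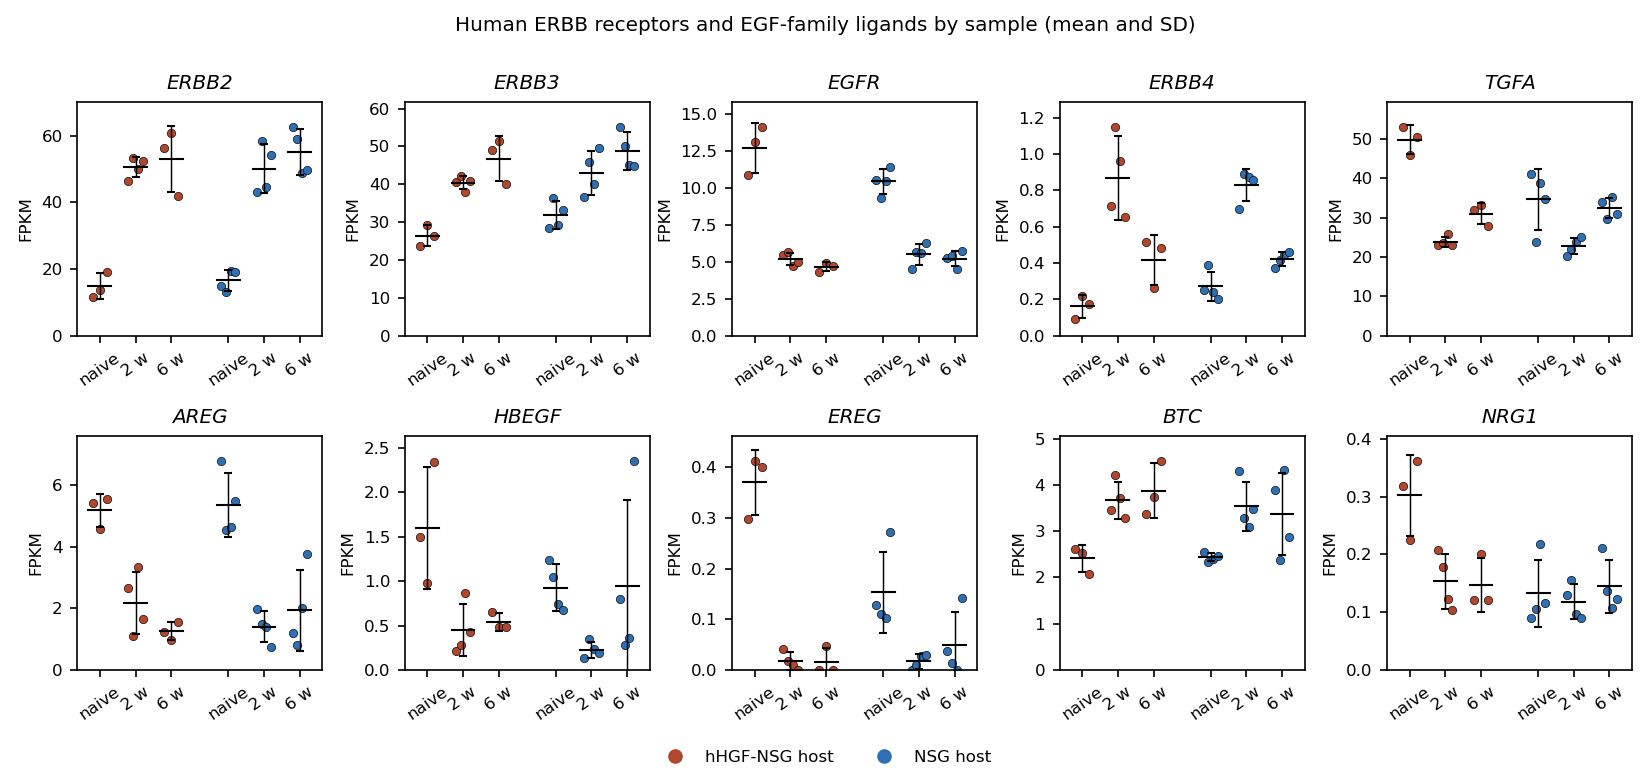
Level of each of the 10 genes in FPKM (vertical axis) in every human library, by week of treatment (horizontal axis), in hHGF-NSG (red) and NSG (blue) hosts, where points are samples and bars the mean and SD. ERBB2 lies between 41.9 and 62.7 FPKM in all treated tumours and between 11.7 and 19.4 in all naive ones, and EGFR shows the opposite order.

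ERBB2, the ligand-less co-receptor, showed the largest rise of the 7 tested members. In hHGF-NSG tumours ERBB2 stood at 11.7, 13.6 and 19.2 FPKM when naive, at 46.5, 53.3, 49.9 and 52.4 at 2 weeks and at 56.4, 60.9 and 41.9 at 6 weeks. In NSG tumours ERBB2 stood at 15.1, 13.0, 19.4 and 19.2 FPKM when naive, at 43.1, 58.3, 44.7 and 54.1 at 2 weeks and at 62.7, 59.1, 48.9 and 49.6 at 6 weeks. Every treated tumour was above every naive one, with no overlap in either host. Mean ERBB2 was 3.41-fold and 3.58-fold the naive level at 2 and 6 weeks in hHGF-NSG tumours and 3.00-fold and 3.30-fold in NSG tumours. The log2 changes were 1.73 ± 0.17 and 1.78 ± 0.18 (SE) in hHGF-NSG tumours, with limma adjusted p-values of 2.33e-08 and 4.89e-08. In NSG tumours they were 1.54 ± 0.15 and 1.68 ± 0.15 (SE), with limma adjusted p-values of 3.90e-08 and 1.12e-08.

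ERBB3, the receptor for neuregulins that couples to PI3 kinase, also rose in all 4 comparisons, by less. In hHGF-NSG tumours its level was 23.7, 29.3 and 26.4 FPKM when naive, 40.5, 42.2, 38.1 and 40.8 at 2 weeks and 49.0, 51.3 and 40.0 at 6 weeks. In NSG tumours its level was 28.3, 36.3, 29.3 and 33.2 FPKM when naive, 36.6, 45.9, 39.9 and 49.5 at 2 weeks and 55.2, 50.0, 45.0 and 44.9 at 6 weeks. Treated and naive tumours did not overlap within a host, although the lowest NSG 2-week tumour, at 36.6 FPKM, stood just above the highest naive one, at 36.3. The log2 changes at 2 and 6 weeks were 0.60 ± 0.12 and 0.80 ± 0.12 (SE) in hHGF-NSG tumours, with limma adjusted p-values of 0.000209 and 2.00e-05. They were 0.42 ± 0.11 and 0.60 ± 0.11 (SE) in NSG tumours, with limma adjusted p-values of 0.00243 and 7.49e-05.

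EGFR, the receptor for TGFA and AREG, fell in all 4 comparisons. In hHGF-NSG tumours EGFR stood at 10.8, 13.1 and 14.1 FPKM when naive, at 5.43, 5.63, 4.70 and 5.003 at 2 weeks and at 4.33, 4.94 and 4.68 at 6 weeks. In NSG tumours EGFR stood at 10.5, 9.30, 10.5 and 11.4 FPKM when naive, at 4.53, 5.64, 5.61 and 6.25 at 2 weeks and at 5.27, 5.36, 4.48 and 5.72 at 6 weeks. The highest treated tumour of either host, at 6.25 FPKM, was below the lowest naive one, at 9.30. Mean EGFR was 0.410-fold and 0.367-fold the naive level in hHGF-NSG tumours and 0.529-fold and 0.500-fold in NSG tumours at 2 and 6 weeks. On the log2 scale it fell by 1.14 ± 0.10 and 1.27 ± 0.11 (SE) in hHGF-NSG tumours, with limma adjusted p-values of 9.57e-09 and 6.91e-09. In NSG tumours EGFR fell by 0.81 ± 0.10 and 0.88 ± 0.10 (SE), with limma adjusted p-values of 3.81e-07 and 1.26e-07.

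ERBB4, a receptor for neuregulins and BTC with an active kinase, was the least abundant receptor. In hHGF-NSG tumours ERBB4 stood at 0.0908, 0.216 and 0.176 FPKM when naive, at 0.713, 1.15, 0.963 and 0.652 at 2 weeks and at 0.514, 0.261 and 0.482 at 6 weeks. In NSG tumours ERBB4 stood at 0.253, 0.389, 0.240 and 0.202 FPKM when naive, at 0.698, 0.891, 0.876 and 0.857 at 2 weeks and at 0.374, 0.415, 0.447 and 0.461 at 6 weeks. The 2-week tumours were above both other times in each host without overlap. These levels rested on 16 to 80 reads per naive library, 117 to 283 at 2 weeks and 51 to 103 at 6 weeks. ERBB4 did not pass the filter, and the fit of all 38040 genes with any read, which called 26.1% of them at 2 weeks in hHGF-NSG tumours and 25.9% in NSG tumours, put ERBB4 higher there by 0.68 ± 0.10 and 0.53 ± 0.09 (log2, SE), with limma adjusted p-values of 2.43e-05 and 0.000170. At 6 weeks, where that fit called 23.5% and 26.6%, the changes were 0.29 ± 0.11 and 0.17 ± 0.09, with limma adjusted p-values of 0.0575 and 0.226.

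A fit of the recovered reads (limma voom, genes with at least 10 reads in at least 3 samples) was added after the values were seen and does not shrink low levels. It put ERBB4 higher by 2.44 and 1.35 on the log2 scale at 2 and 6 weeks in hHGF-NSG tumours, with adjusted p-values of 8.95e-07 and 0.00506, where it called 53.8% and 49.7% of 18734 genes. In NSG tumours ERBB4 was higher by 1.65 and 0.69, with adjusted p-values of 4.15e-06 and 0.0408, where it called 56.1% and 56.9%. The 6-week call of ERBB4 against naive thus depended on the fit.

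Together these changes altered the receptor mix. The summed level of the 4 receptors was 54.1 ± 7.0, 97.0 ± 4.3 and 105 ± 15.8 FPKM in hHGF-NSG tumours that were naive or treated for 2 and 6 weeks, and 59.1 ± 4.0, 99.4 ± 13.4 and 110 ± 11.8 FPKM in NSG tumours (SD). ERBB2 made up 27.2% of the sum in naive, 52.1% in 2-week and 50.4% in 6-week hHGF-NSG tumours, and 28.1%, 50.3% and 50.2% in NSG tumours. EGFR made up 23.4%, 5.35% and 4.50% in hHGF-NSG tumours and 17.6%, 5.56% and 4.79% in NSG tumours. ERBB3 made up 49.1%, 41.7% and 44.7% in hHGF-NSG tumours and 53.8%, 43.3% and 44.6% in NSG tumours, so its mean share was lower after treatment. ERBB4 made up 0.292% to 0.895% in the 6 group means. The ratio of ERBB2 to EGFR was 1.16 ± 0.17 in naive, 9.78 ± 0.96 in 2-week and 11.4 ± 2.2 in 6-week hHGF-NSG tumours, and 1.59 ± 0.22, 9.12 ± 1.03 and 10.6 ± 1.4 in NSG tumours (SD). ERBB2 thus passed ERBB3: its ratio to ERBB3 was 0.465 to 0.727 and 0.358 to 0.660 in naive hHGF-NSG and NSG tumours and above 1 in every treated tumour, at 1.05 to 1.31 and 1.09 to 1.27. These shares and ratios are descriptions of FPKM, which is per length, and were not tested.

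**Figure D2:**
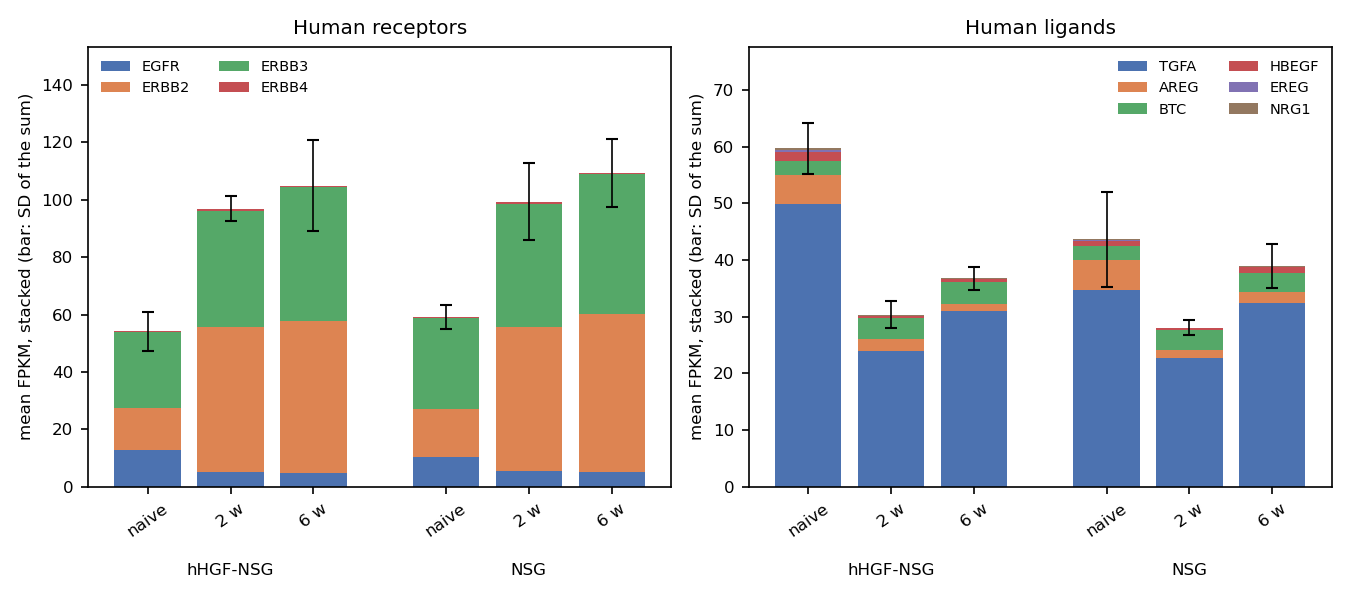
Mean FPKM of the receptors (left) and ligands (right), stacked, in each group, with the SD of the sum as a bar. The receptor sum is 54.1 and 59.1 FPKM in naive hHGF-NSG and NSG tumours and 97.0 to 110 in treated ones, with both ERBB2 and ERBB3 larger in treated tumours, while TGFA is the largest part of every ligand bar.

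TGFA, a high-affinity ligand of EGFR, was the most abundant ligand in every library, at 74.5% to 89.1% of the ligand sum. In hHGF-NSG tumours TGFA stood at 53.1, 45.8 and 50.5 FPKM when naive, at 23.1, 23.5, 25.7 and 23.1 at 2 weeks and at 31.8, 33.1 and 27.9 at 6 weeks. In NSG tumours TGFA stood at 41.1, 23.8, 38.8 and 34.6 FPKM when naive, at 20.3, 21.9, 23.9 and 25.0 at 2 weeks and at 33.9, 29.6, 35.3 and 31.0 at 6 weeks. The 3 hHGF-NSG groups did not overlap, whereas NSG naive replicate 2, at 23.8 FPKM, lay within the range of the 2-week NSG tumours. TGFA fell by 1.03 ± 0.13 and 0.67 ± 0.14 (log2, SE) at 2 and 6 weeks in hHGF-NSG tumours, with limma adjusted p-values of 1.49e-06 and 0.000519. In NSG tumours TGFA fell by 0.56 ± 0.12 at 2 weeks, with a limma adjusted p-value of 0.000635. At 6 weeks in NSG tumours its change was -0.07 ± 0.12, with a limma adjusted p-value of 0.669, and without NSG naive replicate 2 it was -0.23, with a limma adjusted p-value of 0.0385, which is a call.

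AREG, a lower-affinity ligand of EGFR, fell in all 4 comparisons. In hHGF-NSG tumours AREG stood at 5.42, 4.57 and 5.55 FPKM when naive, at 2.66, 1.09, 3.34 and 1.64 at 2 weeks and at 1.24, 0.971 and 1.55 at 6 weeks. In NSG tumours AREG stood at 6.78, 4.54, 4.63 and 5.48 FPKM when naive, at 1.98, 1.50, 1.38 and 0.752 at 2 weeks and at 1.19, 0.796, 2.00 and 3.75 at 6 weeks. Naive and treated tumours did not overlap within a host. Mean AREG was 0.421-fold and 0.242-fold the naive level at 2 and 6 weeks in hHGF-NSG tumours and 0.262-fold and 0.361-fold in NSG tumours. The falls were 1.01 ± 0.27 and 1.46 ± 0.29 (log2, SE) in hHGF-NSG tumours, with limma adjusted p-values of 0.00346 and 0.000261. AREG fell by 1.42 ± 0.25 and 1.20 ± 0.25 (log2, SE) in NSG tumours, with limma adjusted p-values of 6.68e-05 and 0.000359.

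HBEGF, which binds EGFR and ERBB4, was low. Its level in hHGF-NSG tumours was 1.49, 0.977 and 2.34 FPKM when naive, 0.210, 0.281, 0.863 and 0.429 at 2 weeks and 0.656, 0.486 and 0.482 at 6 weeks. In NSG tumours HBEGF was 1.23, 1.05, 0.746 and 0.674 FPKM when naive, 0.129, 0.351, 0.234 and 0.187 at 2 weeks and 0.795, 0.281, 0.355 and 2.36 at 6 weeks. The 2-week tumours lay below the naive ones in each host, and the 6-week NSG tumours spanned the naive range because replicate 4 was the highest HBEGF library of all. HBEGF fell by 0.84 ± 0.25 and 0.72 ± 0.27 (log2, SE) at 2 and 6 weeks in hHGF-NSG tumours, with limma adjusted p-values of 0.00853 and 0.0306, and by 0.65 ± 0.23 at 2 weeks in NSG tumours, with 0.0243. At 6 weeks in NSG tumours the change was -0.09 ± 0.23, with a limma adjusted p-value of 0.764.

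These HBEGF calls are given as a description and rested on single libraries. Without hHGF-NSG naive replicate 3 the limma adjusted p-values were 0.0636 at 2 weeks and 0.149 at 6 weeks in hHGF-NSG tumours. The 6-week call in hHGF-NSG tumours was also lost without hHGF-NSG naive replicate 1, at 0.0572, and without hHGF-NSG 6 weeks replicate 2 or replicate 3, at 0.0711 and 0.0720. The 2-week HBEGF call in NSG tumours was lost without NSG 2 weeks replicate 1 or NSG naive replicate 2, at 0.0550 and 0.0532, and without NSG naive replicate 1, the library with HGF reads, at 0.0679. The fit with no filter also lost it, at 0.0540, and the 6-week call in hHGF-NSG tumours, at 0.0669.

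EREG, a ligand of EGFR and ERBB4, was close to absent after treatment. It had 23, 36 and 34 reads in the hHGF-NSG naive libraries, 4, 2, 1 and 0 at 2 weeks and 0, 4 and 0 at 6 weeks. In the NSG libraries it had 10, 10, 8 and 26 reads when naive, 0, 1, 2 and 3 at 2 weeks and 3, 1, 0 and 14 at 6 weeks. Only NSG 6 weeks replicate 4 reached the naive range of its host, and the other 14 treated libraries had at most 4 reads. A library with 0 reads still allows up to 3, for counting error only. The mean EREG level was 0.0174 ± 0.0171 and 0.0156 ± 0.0269 FPKM at 2 and 6 weeks in hHGF-NSG tumours, against 0.370 ± 0.063 in naive ones, and 0.0168 ± 0.0142 and 0.0486 ± 0.0647 FPKM in NSG tumours, against 0.153 ± 0.080 in naive ones (SD). The fit with no filter called EREG lower in all 4 comparisons, by 0.43 ± 0.05 and 0.43 ± 0.05 (log2, SE) in hHGF-NSG tumours and by 0.18 ± 0.05 and 0.14 ± 0.05 in NSG tumours, with limma adjusted p-values of 1.62e-06, 4.25e-06, 0.00587 and 0.0330. That fit called 26.1%, 23.5%, 25.9% and 26.6% of 38040 genes in the same comparisons, and the EREG calls rest on the few reads given above.

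BTC, which binds EGFR and ERBB4, was the one ligand that rose. In hHGF-NSG tumours BTC stood at 2.62, 2.54 and 2.08 FPKM when naive, at 3.46, 4.21, 3.72 and 3.30 at 2 weeks and at 3.37, 3.74 and 4.52 at 6 weeks. In NSG tumours BTC stood at 2.54, 2.34, 2.40 and 2.47 FPKM when naive, at 4.30, 3.28, 3.10 and 3.48 at 2 weeks and at 3.90, 2.38, 4.32 and 2.88 at 6 weeks. All treated tumours were above the naive ones of their host except NSG 6 weeks replicate 2, at 2.38 FPKM. BTC rose by 0.45 ± 0.13 and 0.51 ± 0.14 (log2, SE) in hHGF-NSG tumours, with limma adjusted p-values of 0.00665 and 0.00474, and by 0.40 ± 0.12 and 0.32 ± 0.12 in NSG tumours, with 0.00958 and 0.0291. The 6-week NSG call of BTC was lost without NSG naive replicate 2 or 3, at 0.0563 and 0.0548, without NSG 6 weeks replicate 1 or 3, at 0.0985 and 0.122, with voom on the recovered reads, at 0.0545, and in the fit with no filter, at 0.0607.

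NRG1, the neuregulin that binds ERBB3 and ERBB4, was low, at 0.0895 to 0.362 FPKM over all human libraries. In hHGF-NSG tumours NRG1 stood at 0.319, 0.226 and 0.362 FPKM when naive, at 0.209, 0.177, 0.123 and 0.104 at 2 weeks and at 0.121, 0.200 and 0.120 at 6 weeks. In NSG tumours NRG1 stood at 0.0903, 0.106, 0.218 and 0.116 FPKM when naive, at 0.130, 0.156, 0.0972 and 0.0895 at 2 weeks and at 0.212, 0.136, 0.108 and 0.123 at 6 weeks. Treated and naive tumours did not overlap in hHGF-NSG mice and overlapped in NSG mice. The fit with no filter called NRG1 lower in hHGF-NSG tumours at 2 and 6 weeks, by 0.17 ± 0.05 and 0.18 ± 0.05 (log2, SE), with limma adjusted p-values of 0.0146 and 0.0187. That fit called 26.1% and 23.5% of 38040 genes in these comparisons. In NSG tumours the changes were -0.02 ± 0.05 and 0.02 ± 0.05, with limma adjusted p-values of 0.939 and 0.959, and the difference in response between hosts did not pass the test at 2 or 6 weeks, at 0.880 and 0.426.

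**Figure D3:**
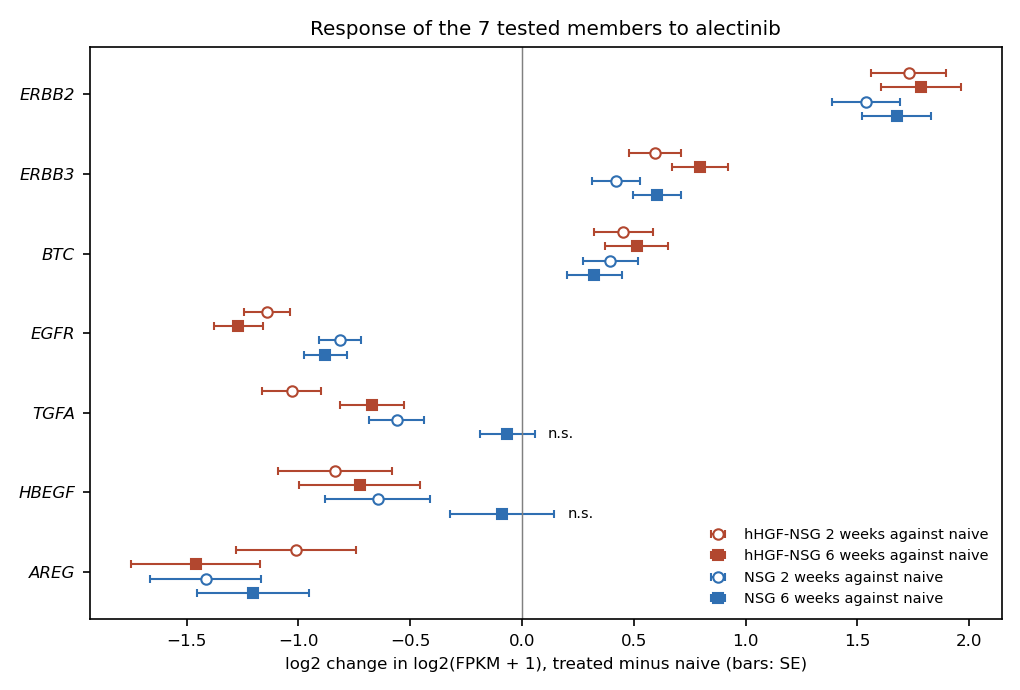
Change in log2(FPKM + 1), treated minus naive (horizontal axis), of the 7 tested genes in both hosts at 2 and 6 weeks, with bars for the SE and n.s. for an adjusted p above the threshold. ERBB2, ERBB3 and BTC lie above 0 in all 4 comparisons, EGFR and AREG below 0, and TGFA and HBEGF at -0.07 and -0.09 at 6 weeks in NSG tumours.

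AREG, EREG and BTC lie in 1 gene cluster on chromosome 4 (hg38), together with EPGN, another EGF-family ligand. EPGN lies at chr4:74308473-74315307, EREG at chr4:74365143-74388751 and AREG at chr4:74445134-74455009, all on the plus strand, with gaps of 49.8 and 56.4 kb between them. BTC lies 290 kb further on, at chr4:74744759-74794686, on the minus strand. In these neighbours the fall of AREG and the lower reads of EREG stood beside the rise of BTC. EPGN had at most 5 reads in any library, with a mean of 0.00794 and 0 FPKM at 2 and 6 weeks in hHGF-NSG tumours against 0.104 in naive ones.

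**Figure D4:**
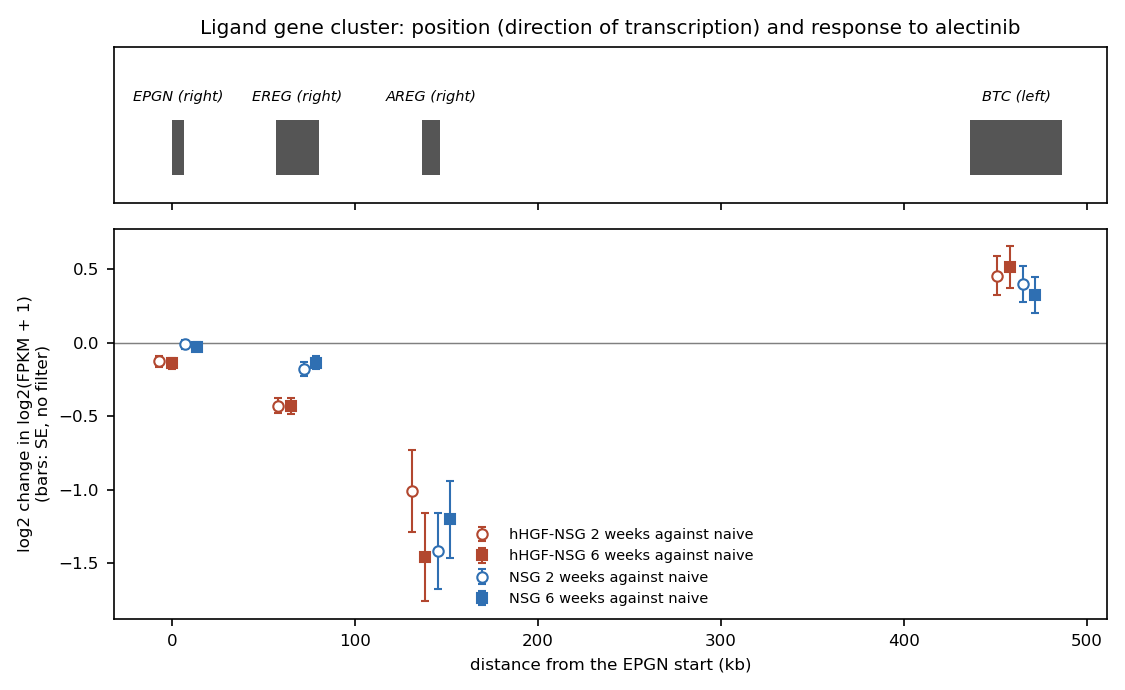
Top, position of the 4 ligand genes of the cluster as distance from the EPGN start in kb, with the direction of transcription; bottom, change in log2(FPKM + 1), treated minus naive, of each gene in the fit with no filter, with SE bars. AREG changes by -1.01 to -1.46, EREG by -0.14 to -0.43 and BTC by 0.32 to 0.51. This scale understates changes of low genes such as EREG. At 2 and 6 weeks mean EREG fell 21.3-fold and 23.8-fold in hHGF-NSG and 9.09-fold and 3.15-fold in NSG tumours, on 4 to 18 reads per treated group. Mean AREG fell 2.37-fold, 4.13-fold, 3.82-fold and 2.77-fold in the same order.

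The promoters of AREG and EREG, the pair of neighbours that were low after treatment, are printed beside that of EGFR, the receptor that fell with them, to show how their start regions differ. Each is 240 bases of the plus strand that end 10 bases before the RefSeq start (GRCh38.p14). They span chr4:74444886-74445125 for AREG, chr4:74364895-74365134 for EREG and chr7:55018767-55019006 for EGFR. Of the 10 members, 8 had a promoter entry in the RefSeq table. Capitals mark matches on either strand to 4 motifs. The TATA box was searched as TATAAA and the cAMP response element as TGACGTCA. The AP-1 site was searched as TGANTCA and the GC box as GGGCGG.
AREG: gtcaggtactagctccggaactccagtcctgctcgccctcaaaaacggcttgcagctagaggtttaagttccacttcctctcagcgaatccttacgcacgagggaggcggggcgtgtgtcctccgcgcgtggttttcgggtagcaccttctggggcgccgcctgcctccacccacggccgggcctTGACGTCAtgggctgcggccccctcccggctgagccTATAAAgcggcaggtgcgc
EREG: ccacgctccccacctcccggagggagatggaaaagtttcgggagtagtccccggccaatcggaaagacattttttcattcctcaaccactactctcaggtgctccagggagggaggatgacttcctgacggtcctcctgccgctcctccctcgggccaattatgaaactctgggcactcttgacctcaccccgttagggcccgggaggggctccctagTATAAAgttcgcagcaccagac
EGFR: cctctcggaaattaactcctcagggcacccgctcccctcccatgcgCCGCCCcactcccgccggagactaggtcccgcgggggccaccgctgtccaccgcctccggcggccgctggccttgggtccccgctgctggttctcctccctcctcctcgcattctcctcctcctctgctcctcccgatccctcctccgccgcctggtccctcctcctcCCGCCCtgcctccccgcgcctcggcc
AREG and EREG each held 1 TATA box, at -29 and -32 from the start, a motif found in 10.6% of 35116 promoters of this length. AREG also held the cAMP response element at -65, which 1.57% of promoters hold. EGFR held no TATA box and 2 GC boxes, at -204 and -36, both on the other strand, and 41.4% of promoters hold at least 1. None of the 3 held the AP-1 letters, which 6.43% of promoters hold. The GC content was 64.6%, 58.3% and 73.3% for AREG, EREG and EGFR. No match overlapped another. A match describes letters and not a bound site.

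Between 2 and 6 weeks few members differed. In NSG tumours TGFA was higher at 6 weeks than at 2 weeks by 0.49 ± 0.12 (log2, SE), with a limma adjusted p-value of 0.00755 and no overlap between the groups. That was 1 of 7 tested members, where 20.4% of all genes were called, 8.43% higher and 11.9% lower. In hHGF-NSG tumours the same difference for TGFA was 0.36 ± 0.13, again without overlap, with a limma adjusted p-value of 0.107. Without NSG naive replicate 2, which is in neither group, the limma adjusted p-value was 0.0134. The difference stayed at 0.36, and only its SE, shared over all groups, fell to 0.09. With all libraries, 0 of 7 members were called by limma in hHGF-NSG tumours, where 9.08% of all genes were (2.63% higher and 6.45% lower). An unadjusted p under 0.05 was found for 1 member and for 3212 of 16029 genes, and voom on the same genes called 0 members. HBEGF in NSG tumours was higher at 6 weeks by 0.56 ± 0.23, with a limma adjusted p-value of 0.101, and 0.0466 without NSG 6 weeks replicate 2. ERBB4, outside the filter, was lower at 6 than at 2 weeks by 0.39 ± 0.10 in hHGF-NSG tumours and 0.36 ± 0.09 in NSG tumours in the fit with no filter, with limma adjusted p-values of 0.0271 and 0.0198, where 3.81% and 7.18% of genes were called. ERBB2, ERBB3, EGFR, AREG and BTC differed between 6 and 2 weeks by -0.45 to 0.21 on the log2 scale, with limma adjusted p-values of 0.248 to 0.912.

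The hosts were compared at each time. No tested member passed in any of these comparisons with limma or with voom. In naive tumours 3 of 16029 genes were called (0.0187%, with 0.0125% higher and 0.00624% lower). An unadjusted p under 0.05 was found there for 3 of 7 members and for 1427 of 16029 genes. At 2 and at 6 weeks 0 genes were called (0.0%), with 681 and 1946 genes at an unadjusted p under 0.05 and 0 members, and voom on the same genes called 0 and 2 genes. Among tested members the naive difference was widest on the log2(FPKM + 1) scale for TGFA, at 49.8 ± 3.7 FPKM in hHGF-NSG and 34.6 ± 7.7 FPKM in NSG tumours (SD, n = 3 and 4), with no overlap. The log2 difference was 0.54 ± 0.13 (SE), with an unadjusted p of 0.000628 and a limma adjusted p-value of 0.222, and 0.63 with an adjusted p-value of 0.0522 without NSG naive replicate 1. In naive tumours EGFR differed by 0.26 ± 0.10 and ERBB3 by -0.25 ± 0.12, with limma adjusted p-values of 0.463 and 0.534.

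The low members EREG and NRG1 differed in level between naive hosts, without a call. EREG was at 0.297 to 0.413 FPKM in hHGF-NSG and 0.102 to 0.272 in NSG naive tumours, and NRG1 at 0.226 to 0.362 and 0.0903 to 0.218, both without overlap. NSG naive replicate 1, the library with HGF reads, was at 0.128 FPKM for EREG and 0.0903 FPKM for NRG1. The share of all genes without overlap between these groups was not computed. In the fit with no filter, where 0.0657% of genes were called between naive hosts, the differences of EREG and NRG1 were 0.25 ± 0.05 and 0.20 ± 0.05 (log2, SE), with limma adjusted p-values of 0.0843 and 0.207.

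Whether the change of the members from naive to treated tumours differed between the hosts was tested directly. At 2 weeks and at 6 weeks 0 of 7 members and 0 of 16029 genes (0.0%) passed with limma, while 2 members and 859 and 2142 genes had an unadjusted p under 0.05. The 2 members were EGFR and TGFA at both times. For TGFA the response in hHGF-NSG minus that in NSG tumours was -0.47 ± 0.18 at 2 weeks and -0.60 ± 0.19 at 6 weeks (log2, SE), with limma adjusted p-values of 0.829 and 0.228, and without NSG naive replicate 1 it was -0.56 and -0.69, with 0.396 and 0.0977. For EGFR it was -0.32 ± 0.14 and -0.39 ± 0.15, with limma adjusted p-values of 0.888 and 0.267. For ERBB2 it was 0.19 ± 0.23 and 0.11 ± 0.23, and for ERBB3 0.18 ± 0.16 and 0.19 ± 0.16, so host differences of this order were within the error. Without NSG naive replicate 1 no tested member passed in the comparisons between hosts or of the responses either.

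The order of levels changed with treatment. In naive tumours TGFA was highest, at a mean of 49.8 FPKM in hHGF-NSG and 34.6 FPKM in NSG tumours, followed by ERBB3, ERBB2, EGFR, AREG, BTC and HBEGF. TGFA and ERBB3 overlapped in NSG naive tumours, ERBB2 and EGFR in hHGF-NSG naive tumours. In all 4 treated groups ERBB2 was highest, at a mean of 50.1 to 55.1 FPKM, followed by ERBB3, TGFA, EGFR and BTC. ERBB2 and ERBB3 overlapped in 3 of these 4 groups and not in hHGF-NSG tumours at 2 weeks. AREG, HBEGF and ERBB4 came next, and NRG1 and EREG were the lowest in each treated group.

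The genes whose log2(FPKM + 1) followed each tested receptor most closely over the 22 samples were taken as a description, since the samples form a naive and a treated cluster and share libraries. For ERBB2 these were HDAC5, MXD4 and RPRM, with Pearson r of 0.990, 0.984 and 0.982. For EGFR, NEURL1B and LAMC1 were among them, with r of 0.988 and 0.986. For ERBB3 they were THRA, PTCH1 and FOXN3, with r of 0.968, 0.947 and 0.943.

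Of the other EGF-family ligands EGF, EPGN, NRG2, NRG3 and NRG4, 0 of 5 passed the filter. EGF, the founding ligand of EGFR, had the highest level of them, at a mean of 0.314 and 0.251 FPKM at 2 and 6 weeks in hHGF-NSG tumours against 0.725 in naive ones, and 0.309 and 0.412 FPKM in NSG tumours against 0.518 in naive ones. The fit with no filter called EGF lower in hHGF-NSG tumours, with limma adjusted p-values of 0.0271 and 0.0173, and not in NSG tumours, at 0.216 and 0.596, while voom with the filter of 10 reads also called it lower in NSG tumours at 2 weeks, at 0.0435. NRG4, a ligand of ERBB4, stood at 0.237 ± 0.091 FPKM in hHGF-NSG tumours at 2 weeks against 0.0547 ± 0.0479 in naive ones (SD). In NSG tumours NRG4 stood at 0.182 ± 0.135 FPKM at 2 weeks against 0.0477 ± 0.0338 in naive ones (SD). The fit with no filter called NRG4 at 2 weeks in hHGF-NSG tumours, with a limma adjusted p-value of 0.0409. That fit did not call it at 6 weeks there or in NSG tumours, at 0.916, 0.113 and 0.719. Voom with the filter of 10 reads called NRG4 higher at 2 weeks in hHGF-NSG and NSG tumours, with adjusted p-values of 0.0187 and 0.0451. At 6 weeks voom did not call it, at 0.859 and 0.556. NRG2, a ligand of ERBB3 and ERBB4, stood at 0.253 ± 0.094 FPKM in hHGF-NSG tumours at 2 weeks against 0.0398 ± 0.0218 in naive ones (SD). There NRG2 had adjusted p-values of 0.1003 in the fit with no filter and 0.0128 with voom and the filter of 10 reads. In NSG tumours NRG2 stood at 0.271 ± 0.212 FPKM at 2 weeks against 0.103 ± 0.092 in naive ones (SD). Its adjusted p-values there were 0.222 in the fit with no filter and 0.0520 with voom and the filter of 10 reads.

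Of 7 genes for the release of ligands (ADAM proteases, and the RHBDF proteins that bring ADAM17 to the surface), 6 were tested. In hHGF-NSG tumours 0 were higher and 5 lower at 2 weeks, and 1 was higher and 5 lower at 6 weeks. In NSG tumours the counts were 0 and 5 at 2 weeks and 1 and 4 at 6 weeks. Over all genes 27.5% were higher and 26.6% lower, then 25.9% and 25.5%, in hHGF-NSG tumours, and 28.1% and 28.0%, then 28.8% and 28.8%, in NSG tumours. The median log2 changes were -0.64, -0.62, -0.46 and -0.50, against 0.03, 0.02, 0.03 and 0.03 over all genes. ADAM17, the main sheddase of TGFA and AREG, was at 3.45 ± 0.15 and 3.56 ± 0.27 FPKM in treated hHGF-NSG tumours against 5.19 ± 0.71 in naive ones, and at 3.50 ± 0.35 and 4.00 ± 0.52 FPKM in treated NSG tumours against 5.12 ± 0.42 (SD), with limma adjusted p-values of 0.000369, 0.00151, 0.000281 and 0.00779. ADAM9 fell by 1.33, 1.18, 0.97 and 0.71 on the log2 scale and ADAM19 by 1.67, 1.70, 0.77 and 0.95. RHBDF2 fell by 0.77, 0.80, 0.47 and 0.85, and all 3 passed in the 4 comparisons, with limma adjusted p-values up to 0.00821. ADAM19 met the filter through naive libraries alone, with at most 0.563 FPKM in any treated library. Its falls and calls, counted among the lower genes above, are thus given as a description and support nothing. RHBDF1, the other RHBDF gene, was the 1 that rose at 6 weeks, by 0.79 in hHGF-NSG tumours and 0.48 in NSG tumours.

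All 12 genes that restrain ERBB receptors were tested. In hHGF-NSG tumours 1 was higher and 7 lower at each time, in NSG tumours 1 was higher and 7 lower at 2 weeks, and 5 were higher and 4 lower at 6 weeks. Of all genes 54.1% and 51.3% were called in hHGF-NSG tumours and 56.1% and 57.6% in NSG tumours. The median log2 changes were -0.27, -0.33, -0.26 and -0.12, against 0.03, 0.02, 0.03 and 0.03 over all genes. ERRFI1 (MIG6), which binds the kinase of active EGFR and ERBB2, fell most, to means of 18.8 ± 6.8 and 23.0 ± 0.8 FPKM in hHGF-NSG tumours, against 116 ± 8.8 in naive ones, and 14.7 ± 1.0 and 29.5 ± 9.2 FPKM in NSG tumours, against 94.5 ± 9.4 (SD). The falls were 2.62, 2.29, 2.60 and 1.69 on the log2 scale, with limma adjusted p-values up to 1.59e-07. LRIG1, a membrane protein that promotes the breakdown of ERBB receptors, went the other way, at 25.2 ± 2.9 and 25.6 ± 5.2 FPKM in hHGF-NSG tumours, against 13.9 ± 3.0 in naive ones, and 28.7 ± 6.3 and 27.5 ± 2.7 FPKM in NSG tumours, against 17.9 ± 2.5. LRIG1 rose in all 4 comparisons, with limma adjusted p-values up to 0.00294. CBL, a ubiquitin ligase of EGFR, fell in all 4, by 0.47, 0.57, 0.55 and 0.52. PTPRK, a phosphatase of EGFR, fell by 0.74, 0.62 and 0.59 in the first 3 and not in NSG tumours at 6 weeks, where the change was -0.25 with a limma adjusted p-value of 0.0611.

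Of 15 adaptors and proximal effectors, 14 were tested. In hHGF-NSG tumours 2 were higher and 5 lower at 2 weeks and 2 higher and 3 lower at 6 weeks. In NSG tumours 2 were higher and 6 lower at 2 weeks and 3 higher and 5 lower at 6 weeks. These counts are near or below the background of 54.1%, 51.3%, 56.1% and 57.6% of all genes called, and the median log2 changes were -0.21, -0.20, -0.14 and -0.01, against 0.03, 0.02, 0.03 and 0.03. PTPN11 (SHP2), the phosphatase that links receptors to RAS, fell by 1.05, 0.95, 1.01 and 0.76 on the log2 scale, with limma adjusted p-values up to 1.70e-06, and SHC1, an adaptor of all ERBB receptors, by 0.51, 0.55, 0.60 and 0.50. STAT5A, a transcription factor that receptors activate, rose by 0.44, 0.58, 0.57 and 0.74 above naive means of 0.771 FPKM in hHGF-NSG and 0.691 FPKM in NSG tumours, and SOS2, an exchange factor for RAS, by 0.27, 0.46, 0.25 and 0.65. All 4 genes passed in each comparison, with limma adjusted p-values up to 0.0127. STAT5A had treated means of 1.41 to 1.81 FPKM and naive means below 1 FPKM. It thus met the filter largely through the groups in which it was high, and its calls are given as a description.

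The mouse table gave the orthologs of the host. Of the 10 orthologs, 5 passed the filter of the mouse table: Egfr, Erbb2, Ereg, Hbegf and Nrg1. At 2 and 6 weeks 2 of 5 were called in each host, Hbegf and Ereg, both lower, where 7.06% and 17.8% of 14287 mouse genes were called in hHGF-NSG tumours and 7.8% and 17.4% in NSG tumours. By direction, 3.49% and 9.67% were higher and 3.56% and 8.12% lower in hHGF-NSG tumours, and 3.32% and 8.81% were higher and 4.48% and 8.59% lower in NSG tumours. Hbegf stood at 20.1, 13.5 and 12.2 FPKM in naive hHGF-NSG tumours, at 4.13, 3.80, 8.60 and 3.29 at 2 weeks and at 3.93, 2.60 and 2.89 at 6 weeks. In NSG tumours Hbegf stood at 10.9, 12.8 and 15.6 FPKM when naive, at 4.01, 3.73, 5.49 and 10.3 at 2 weeks and at 4.81, 3.39 and 1.66 at 6 weeks. Treated and naive tumours did not overlap within a host, and NSG 2 weeks replicate 4 came closest. Hbegf fell by 1.50 ± 0.32 and 1.96 ± 0.34 (log2, SE) in hHGF-NSG tumours, with limma adjusted p-values of 0.00906 and 0.000729, and by 1.11 ± 0.32 and 1.78 ± 0.34 in NSG tumours, with 0.0395 and 0.00147. Ereg passed the filter through 3 naive libraries alone, so its fall and its call are given as a description and support nothing. Ereg had 12, 8 and 6 reads in naive hHGF-NSG libraries and 0 to 4 in treated ones, and 15, 2 and 5 reads in naive NSG libraries and 0 or 1 in treated ones, with falls of 0.94 to 1.14 and limma adjusted p-values of 0.0136 to 0.0335.

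The mouse calls rested on few reads and libraries. Without NSG naive replicate 1, hHGF-NSG naive replicate 1 or hHGF-NSG naive replicate 2, Ereg dropped below the filter. The Hbegf call at 2 weeks in hHGF-NSG tumours was lost without hHGF-NSG naive replicate 1, at an adjusted p of 0.0566. At 2 weeks in NSG tumours the Hbegf call was lost, at adjusted p-values of 0.0506 to 0.133, without any one of NSG naive replicates 1, 3 and 4 or NSG 2 weeks replicates 1, 2 and 3, and the Ereg call, at 0.0679 to 0.0881, without NSG naive replicate 4 or NSG 2 weeks replicates 1, 2 or 3. The Ereg calls at 6 weeks were lost without NSG naive replicate 4, at 0.0502, in NSG tumours and without hHGF-NSG 6 weeks replicate 3, at 0.0590, in hHGF-NSG tumours. Leaving out hHGF-NSG naive replicate 3 made Erbb2 a call at 2 weeks in hHGF-NSG tumours, higher by 0.94 with an adjusted p of 0.0460, against 0.61 and 0.198 with all libraries.

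**Figure D5:**
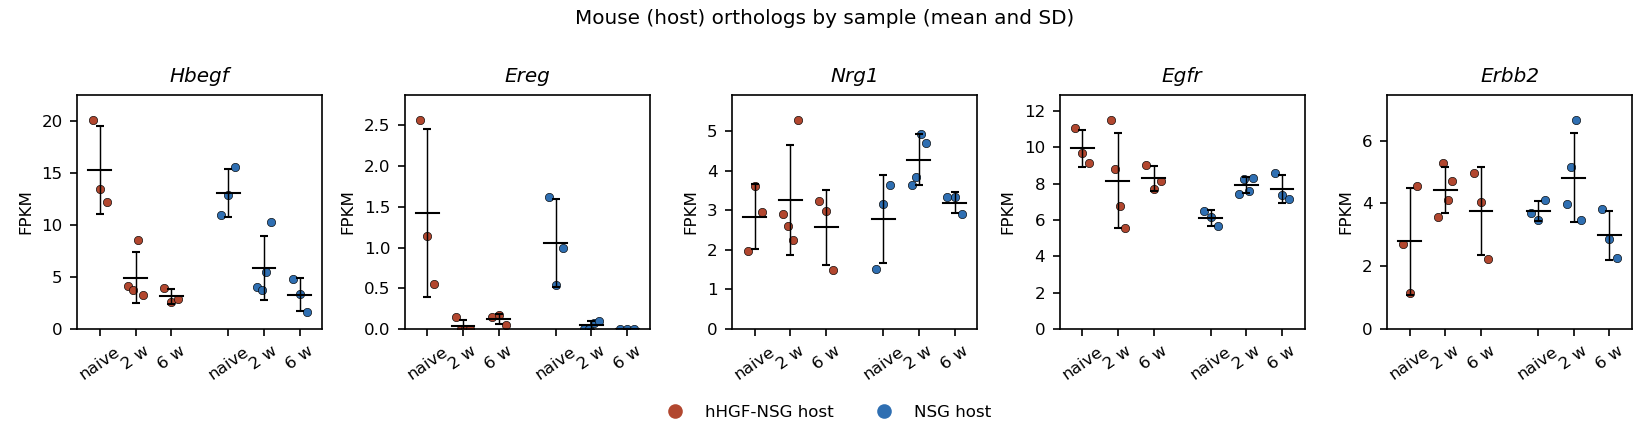
FPKM of the 5 tested mouse orthologs (vertical axis) in each of the 20 libraries of the mouse table, by week of treatment (horizontal axis), in hHGF-NSG (red) and NSG (blue) hosts, with the mean and SD. Hbegf lies at 10.9 to 20.1 FPKM in naive tumours and at 1.66 to 10.3 in treated ones, and Nrg1 lies at 1.48 to 5.28 throughout.

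Mouse Nrg1, the neuregulin of the host, was at 1.48 to 5.28 FPKM in all 20 libraries and was not called, with limma adjusted p-values of 0.244 to 0.818. Mouse Egfr had means of 8.16 ± 2.60 and 8.29 ± 0.69 FPKM in treated hHGF-NSG tumours against 9.95 ± 1.02 in naive ones, and 7.90 ± 0.45 and 7.71 ± 0.76 FPKM in treated NSG tumours against 6.10 ± 0.42 (SD), with limma adjusted p-values of 0.278 to 0.423. Areg had no read in any of the 20 libraries, which allows up to 3 reads per library for counting error, and Erbb4 had 0 to 2. Erbb3, Tgfa and Btc also stayed below the filter, with Btc at 0.286 ± 0.231 and 1.17 ± 0.55 FPKM at 2 and 6 weeks in hHGF-NSG tumours against 0.272 ± 0.236 in naive ones (SD). The human and mouse tables were normalized separately, so levels are not set against each other.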

How the data were processed

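Total RNA of 22 xenograft samples was sequenced in bulk. The submitters' processing notes name hg38 (GRCh38), mm10 and DESeq2 but state no role for them. Neither the aligner nor the annotation is given in the sources used here, and the way human and mouse reads were told apart is not given either. The authors deposited FPKM per gene, 1 table per species, with gene lengths beside them. From the steps of low FPKM values, 100% of values came out as whole reads within a tolerance of 0.05. The totals of 10688632 to 19065656 human reads set the precision of low genes, and intervals and floors cover counting error only.

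The filter (1 FPKM or more, 3 samples or more) left 16029 human and 14287 mouse genes. For each table, log2(FPKM + 1) of all its samples was modelled by group with limma 3.58.1 (R 4.3.3) and a mean-variance trend. Tests were two-sided, adjusted by Benjamini-Hochberg within each of 11 human and 4 mouse comparisons, at a threshold of 0.05. A change on this scale understates that of low genes. The fit was also run on simulated counts with a fixed spread and few changed genes. These settings differ from the data here, so that run does not bear on the calls reported. All replicates of a group differed by more than sampling noise, with a chi-square per degree of freedom of at least 4.28 in the human and 3.95 in the mouse table.

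The members, gene lists and marker lists were chosen with earlier results of these data known. From each list up to 4 tested genes with the largest mean absolute change over the 4 treated comparisons are named, plus RHBDF1, EGF, EPGN, NRG2 and NRG4, chosen after their values were seen. Alternatives were a pseudocount of 0.1, no filter, median-ratio rescaling, the replicate number as a block, limma voom on the recovered reads, and leaving out each sample. Voom with a filter of 10 reads was added after seeing the data. Python 3.11.15 with pandas 2.3.3 and numpy 2.4.6 joined the tables. For each tested receptor, the 3 protein-coding genes with the highest Pearson r over the 22 samples were taken, of which 1 is not reported here.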

Additional observations from a re-analysis of the deposited data

Results flagged for a closer look

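In 54 sets of 4 libraries (a gene in a group), 2 held 1 library far from the other 3, and chance marks about 1 in 20 such sets. Human EREG was at 0.272 FPKM in NSG naive replicate 4 and at 0.102 to 0.128 FPKM in the other 3 NSG naive tumours. Mouse Hbegf was at 8.60 FPKM in hHGF-NSG 2 weeks replicate 3 and at 3.29 to 4.13 FPKM in the other 3 tumours of that group.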

How the results depend on the processing

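No result changed direction under any alternative where it was called. In the treated comparisons 7, 7, 7 and 5 members were called as reported, 10, 8, 8 and 5 with no filter, 7, 7, 7 and 4 with voom and 10, 10, 9 and 6 with voom and the filter of 10 reads. With 1 library left out the ranges were 6 to 7, 6 to 7, 6 to 7 and 4 to 5. Between 6 and 2 weeks it was 1 with no filter and 1 with voom and the filter of 10 reads in hHGF-NSG tumours (0 as reported; 0 to 1 with 1 library left out), and 2 and 2 in NSG tumours (1 as reported; 1 to 2 with 1 library left out). The added member was ERBB4 in the fits with a lower filter, TGFA without NSG naive replicate 2, and HBEGF without NSG 6 weeks replicate 2. The number of mouse orthologs called in NSG tumours at 2 weeks, 2 as reported, was 1 with a pseudocount of 0.1 and 1 with no filter, and 0 to 2 with 1 library left out. With 1 library left out it was 0 to 3 in hHGF-NSG tumours at 2 weeks, 1 to 2 in hHGF-NSG tumours at 6 weeks and 1 to 2 in NSG tumours at 6 weeks, in part because Ereg then fell below the filter. Without NSG naive replicate 1, which had 43 HGF reads, 6 and not 7 members were called in NSG tumours at 2 weeks. The genes called between hosts were then 40 and not 3 in naive tumours, and the genes whose 6-week response differed between hosts 62 and not 0. Median-ratio rescaling moved the median of all genes by at most 0.011 on the log2 scale, and voom on the same genes called 8749, 8257, 9056 and 9242 genes in the 4 treated comparisons, against 8673, 8227, 8989 and 9234. Rescaling started from the deposited FPKM, and voom used the library sizes that the FPKM imply. Neither fit is thus a test of the scaling already in the deposited values.

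The replicate numbers did not pair the samples: of 51 pairs with the same number, 8 had deviations from their group means that correlated above 0.1, with a median r of -0.0237, and 7 of 22 samples correlated best with their own number. With the number as a block, 7, 7, 7 and 5 members were called in the 4 treated comparisons and 0 and 1 between 6 and 2 weeks, as without it, and 1 mouse ortholog in NSG tumours at 2 weeks.

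Depth limits EREG, EPGN and mouse Ereg, where treated libraries held few or no reads. It also limits ERBB4, with 16 to 80 reads per naive library, and NRG1, with 14 to 61 reads per library. The host comparisons are limited by 3 or 4 samples per group.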
